A study of Homo sapiens with 4 samples.

Results

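The actin cytoskeleton genes were followed in a list of peaks from RNA immunoprecipitation sequencing (RIP-seq) of HuR in MDA-MB-231 cells, an established human triple-negative breast cancer line. A gene belonged to the set if its symbol named an actin, an actin-related protein or Arp2/3 subunit, a capping protein, a cofilin, a profilin, a thymosin, a calponin, a tropomyosin, an alpha-actinin, a tropomodulin, a diaphanous formin or a myosin (MYO and MYH). A peak was assigned to the gene of the RefSeq transcript in its annotation. By this rule, 101 of the 14149 listed peaks, or 0.714%, lay on 19 of the 3313 genes with a peak. Of all 97 protein-coding genes that matched the rule, 78 had no listed peak.

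The labels name no treatment of the cells, and the groups differed only in the antibody. RNA was recovered from cell lysate with a mouse anti-HuR antibody in 2 samples and with mouse IgG in the other 2, and libraries were made without poly(A) selection. The file analysed was 1 list of hg38 peaks with 1 score per peak and no value for a single sample, so no difference between the HuR and IgG groups could be tested and no value below has an SD. The depth of the libraries is unknown from it. The score is the value that the peak caller HOMER gave each peak. It is used here to rank peaks within the list. Its scale is not stated, so it cannot be read as an enrichment over IgG. Nor can it be taken to separate HuR binding from the abundance of the RNA. All peaks were 347 bp long, and scores over the whole list ran from 8.32 to 25897.6 with a median of 34.0. Of 3 genes known to be expressed in this mesenchymal line, AXL had 21 peaks (highest score 2768.7) and CD44 had 13 (769.6), whereas VIM had none. The epithelial and receptor genes CDH1, EPCAM, KRT8, ESR1 and PGR, which are known to be low or absent in it, also had none.

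Actin is a globular protein that assembles into polar filaments. The pool of monomers is held by profilins and thymosins, cofilins sever filaments, formins and the Arp2/3 complex start new ones, capping proteins and tropomodulins close the ends, and tropomyosins, calponins and alpha-actinins bind along the side. Myosins are the motors that pull on filaments. This machinery shapes the protrusions with which cancer cells migrate. HuR, the product of ELAVL1, is an RNA-binding protein known to recognise AU-rich and U-rich elements, many of them in 3′-UTRs, and to stabilise mRNAs or change their translation.

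U-rich runs were found under 3′-UTR peaks of several genes of the set. The stretches below are shown because they are the 30 bases with the most T-runs and ATTTA pentamers under a 3′-UTR peak of that gene. They are the reference sequence in the sense direction, 5′ to 3′, with T in place of U, and capitals mark ATTTA and runs of 5 or more T.
CNN3: tcagtATTTAgtcctttgTTTTTattcagt
CAPZA1: taTTTTTTTaaacattcaagaactgctgac
TMOD3: tcTTTTTTTTTTTTTgttttggtttgtttt
PFN2: aatagctcagaTTTTTcttccTTTTTcttt
ARPC4: ttaTTTTTTctctcctatgccaccccaggt
In hg38 the CNN3 stretch, chr1:94897695-94897724 on the minus strand, begins 17 bp after the stop codon and lies 9 bp from the centre of the highest CNN3 peak. Those of CAPZA1 (chr1:112670883-112670912), TMOD3 (chr15:51910740-51910769) and ARPC4 (chr3:9806629-9806658) are on the plus strand, and that of PFN2 (chr3:149965404-149965433) is on the minus strand. These lie further from the centre of their peak, at 159 bp in CAPZA1, 51 bp in TMOD3, 75 bp in ARPC4 and 103 bp in PFN2. The stretch of TMOD3 begins 1929 bp into its 3′-UTR, which is the longest of the 5 at 6915 bp. The stretches of ARPC4 and TMOD3 lie under peaks of 726.6 and 604.9 and not under the highest 3′-UTR peak of the gene, and the highest of ARPC4 (812.0) held no run of 5 T. A run of T is a description of the sequence and not a mapped HuR site.

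Peaks were present on 19 of the 97 genes, which is 19.6% (Wilson 95% interval 12.9 to 28.6), beside 15.3% of all 20020 protein-coding genes in the annotation. The interval of the set contained the background share. Scores of the peaks were high within the list. The median over the 101 peaks was 231 (95% interval of the median 118 to 314), beside 34.0 over the list, and 69 of them, or 68.3%, reached the list median. At that level 13 of the 97 genes had a peak, beside 7.78% of all genes. Peaks of 1 gene are not independent, and this interval treats them as if they were. With 1 value per gene, the median of the 19 best peaks was 279, and its interval of 22.8 to 737 contained the 34.0 of all listed genes. With 1 peak per merged locus it was 185 (45.0 to 314). Scores ran from the very high values of ACTB through intermediate ones, as in CNN2 and PFN2, to the low values of the myosins and of DIAPH2 and DIAPH3.

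**Figure D1:**
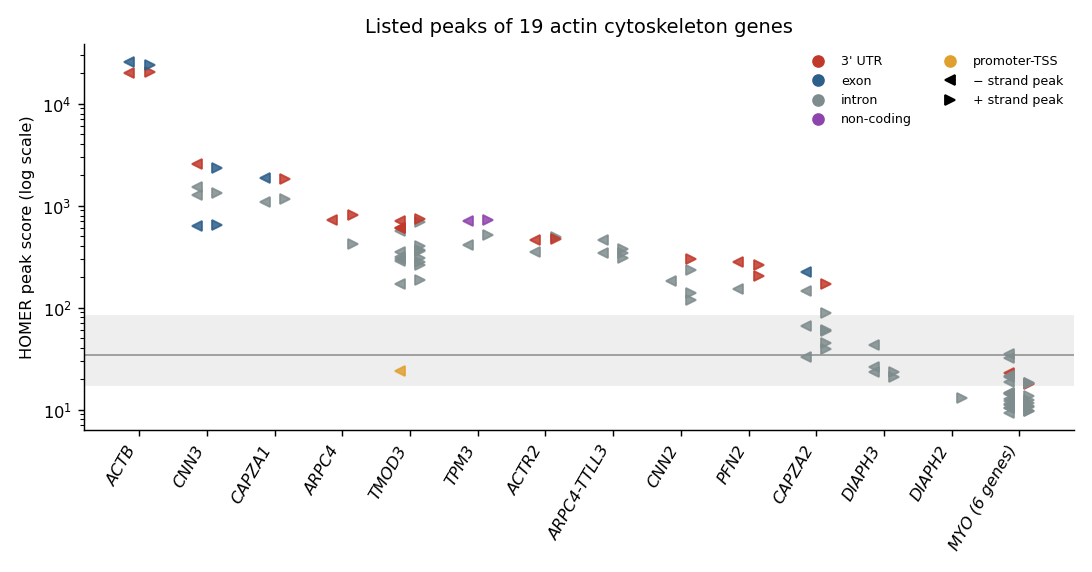
Score of every listed peak (log scale) on the 19 genes, ordered by their best peak with the 6 myosins in 1 column, where each triangle is 1 peak, points left or right for the minus or plus strand and is coloured by the annotated region. The line is the list median of 34.0 and the band its quartiles (17.6 to 83.4). The 4 ACTB peaks lie at 20120.4 to 25897.6, and 25 of the 26 myosin peaks lie under the list median.

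ACTB, which encodes the beta-actin of non-muscle cells, had the highest best score among the 3313 genes, and its 4 peaks were the 4 highest of the whole list. In exon 4, the peak at chr7:5528196-5528542 scored 25897.6 on the minus strand and its neighbour at chr7:5528452-5528798 scored 24048.3 on the plus strand. In the last exon, within the 3′-UTR, the peaks at chr7:5527292-5527638 and chr7:5527556-5527902 scored 20120.4 and 20370.7. Coding-exon and 3′-UTR peaks of ACTB were thus within a narrow range, and the higher pair was the one in the coding exon. Exons 1, 2, 3 and 5 had no listed peak. ACTB carried 72.1% of the summed score of the set and 6.29% of the summed score of the list. Without ACTB the median of the set was 205 (65.8 to 307).

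None of the other 5 actins was listed. The group thus had 1 listed gene of 6 (16.7%, 3.01 to 56.4), beside the 15.3% of all protein-coding genes. ACTG1, the second actin of non-muscle cells, and the muscle actins ACTA1, ACTA2, ACTC1 and ACTG2 had no peak. The coding sequences of ACTB and ACTG1 are identical at 1027 of 1125 bp (91.3%), with a longest identical run of 59 bp. Whether reads were shared between these genes depends on the read length and was not tested. How reads with several matches were counted is not given in the sources used here. Of the 12 annotated pseudogenes of ACTB, 2 carried listed peaks, all annotated as intergenic. ACTBP2 on chromosome 5 had scores of 229.3 and 58.5, and ACTBP11 on chromosome 1 had 16.2 and 11.7. The 21 annotated pseudogenes of ACTG1 had none.

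The Arp2/3 complex starts a branch on the side of an existing filament. Among 18 actin-related proteins and Arp2/3 subunits, 3 genes were listed (16.7%, 5.84 to 39.2), beside the 15.3% of all protein-coding genes. They held 12 peaks with scores of 309.8 to 812.0 and a median of 440. ACTR2 encodes Arp2, an actin-like subunit of the complex. Its peaks scored 496.0 beside exon 3, 352.6 beside exon 8, and 459.3 and 466.7 in the 3′-UTR. The highest thus lay outside the last exon. Its exact Poisson 95% interval (475.0 to 518.0, counting error only) overlapped that of the 466.7 peak (446.0 to 488.0). ARPC4, a structural subunit, had 421.6 in an intron and 726.6 and 812.0 in the 3′-UTR. ACTR3, which encodes Arp3, and ARPC1A, ARPC1B, ARPC2, ARPC3, ARPC5 and ARPC5L were unlisted.

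The third gene of this group, ARPC4-TTLL3, is a readthrough locus that joins ARPC4 to the gene downstream. Its 5 peaks scored 375.1, 344.8, 346.3, 309.8 and 459.8. All of them lay in the part shared with ARPC4. Exons 6 to 12 of the readthrough transcript, past the end of ARPC4, had no peak annotated to the readthrough gene. Peaks annotated to the downstream gene alone were not counted. Measured from the edge of each peak that trails its strand, all 8 peaks of both genes were in an ARPC4 exon or within 54 bp of one. Counted as 1 gene, the locus had 8 peaks on exons 2 to 6 of ARPC4, and the set had 18 listed genes.

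Monomer binding and severing proteins had 1 listed gene of 12 (8.33%, 1.49 to 35.4). The interval contained the 15.3% of all protein-coding genes. PFN2 encodes profilin 2, which binds actin monomers and delivers them to growing ends. Its 3′-UTR held peaks of 279.0, 261.4 and 204.8, and an intron peak scored 151.7. The 3′-UTR peaks were therefore the higher ones. PFN1, the profilin present in most cells, PFN3, PFN4, the cofilins CFL1 and CFL2 and the thymosins TMSB4X and TMSB10 had no peak.

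Proteins at filament ends had 5 listed genes of 11 (45.5%, 21.3 to 72.0), beside the 15.3% of all protein-coding genes. The 5 genes held 39 peaks from 13.0 to 1874.3 with a median of 262. CAPZA1 and CAPZA2 encode alternative alpha subunits of the capping protein, which closes the barbed end. The 4 CAPZA1 peaks scored 1095.3 and 1161.9 on either side of exon 5, 1874.3 in exon 10 (chr1:112669892-112670238) and 1817.2 in the 3′-UTR (chr1:112670883-112671229). CAPZA2 had 10 peaks, from 32.5 to 223.4, and its highest was also in the last exon, exon 10. Every CAPZA1 peak scored higher than every CAPZA2 peak. The lowest CAPZA1 score, 1095.3, had an exact Poisson 95% interval of 1060.0 to 1130.0 (counting error only), and the highest CAPZA2 score, 223.4, one of 209.0 to 238.0.

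The pair of capping subunits differed in the exons covered as well as in the scores. Peaks were assigned to exons 1, 3, 5, 6, 7, 8 and 10 of CAPZA2 but only to exons 5 and 10 of CAPZA1, both of which have 10 exons. Exons 2 to 9 have the same lengths in both genes. The coding sequences are identical at 77.6% of 858 bp, with a longest identical run of 20 bp. Exon 5, of 207 bp, is the longest internal exon of each and was covered in both. CAPZB, the beta subunit shared by both forms, and CAPZA3 were unlisted.

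TMOD3 encodes the tropomodulin of most non-muscle cells, which caps the pointed end. It had 19 peaks, the most of any gene of the set, and they touched 9 of its 10 exons. The 4 in the 3′-UTR scored 699.6, 736.8, 607.6 and 604.9. From the 5′ end, the 14 peaks annotated to introns scored 186.0, 289.0, 696.0, 563.3, 307.4, 170.8, 279.2, 314.2, 262.1, 362.9, 301.5, 404.0, 348.5 and 367.8, and 1 peak annotated to the promoter scored 24.0. The highest peak beside an internal exon, 696.0, was close to those of the 3′-UTR, and their counting intervals overlapped for 2 of the 4 (671.0 to 722.0 beside 674.0 to 726.0 and 711.0 to 764.0). TMOD1, TMOD2 and TMOD4 had no listed peak.

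The diaphanous formins, which elongate unbranched filaments, were at the low end of this group. DIAPH3 had 5 intron peaks of 20.8 to 43.1 and DIAPH2 a single one of 13.0, while DIAPH1 had none. DIAPH3 passed the list median only with its highest peak, and DIAPH2 did not reach it.

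**Figure D2:**
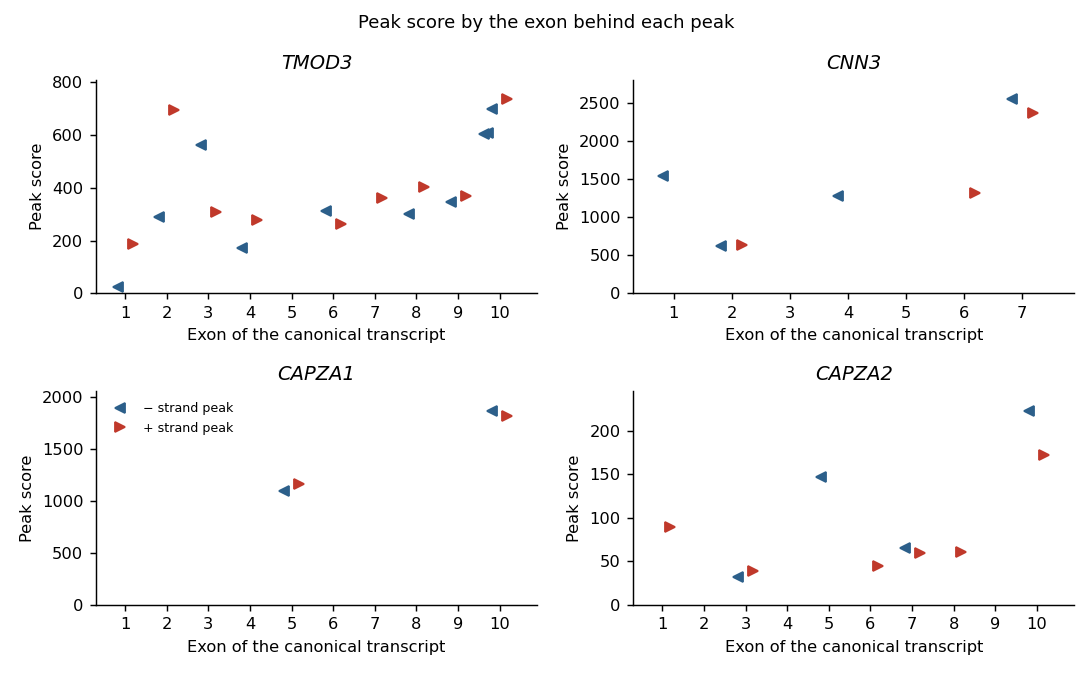
Peak scores (linear scale) along the exons of TMOD3, CNN3, CAPZA1 and CAPZA2, each peak placed at the exon nearest to its trailing edge, with triangles pointing left for minus and right for plus peaks. TMOD3 has peaks at 9 of its 10 exons and CAPZA1 at exons 5 and 10 only, and the highest peak of each of the 4 genes lies at its last exon.

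Proteins along the filament side had 3 listed genes of 11 (27.3%, 9.75 to 56.6), beside the 15.3% of all protein-coding genes. The 3 genes held 16 peaks from 118.0 to 2550.2 with a median of 633. CNN3 encodes calponin 3, an actin-binding protein of non-muscle cells and smooth muscle, and ranked 8th of the 3313 genes by best score. Its peaks at the 3′ end scored 2550.2 in the 3′-UTR (chr1:94897545-94897891) and 2362.7 in exon 7 (chr1:94897724-94898070). The peak of intron 1, at chr1:94926661-94927007, scored 1539.0, and the remaining 4 scored 1323.2, 1275.0, 639.9 and 626.0. The lowest scores, 639.9 in exon 2 and 626.0 in exon 3 by annotation, had higher ones on both sides. At the trailing edge both peaks were nearest to exon 2. CNN3 held 8.22% of the summed score of the set, second to ACTB.

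CNN2, the related calponin 2, had 5 peaks of 118.0, 139.5, 183.3, 231.3 and 300.8, listed here from the 5′ to the 3′ end, along which the score increased at every step. All lay below the lowest CNN3 peak of 626.0. CNN1, the calponin of smooth muscle, was unlisted. TPM3, a tropomyosin of non-muscle and slow muscle filaments, had 513.4 and 413.3 in introns and 709.7 and 722.4 in its last non-coding exon, 8 of 8 in the annotated transcript. That exon lies outside the canonical TPM3 transcript but inside the gene (chr1:154155308-154194648). The tropomyosins TPM1, TPM2 and TPM4 and the alpha-actinins ACTN1 to ACTN4, which cross-link filaments, had no peak.

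The myosins were the largest group and the one with the lowest scores. Of 25 MYO genes 6 were listed (24.0%, 11.5 to 43.4), beside the 15.3% of all protein-coding genes. The 6 genes held 26 peaks of a median score of 13.2 (11.0 to 18.1). Of these peaks, 25 lay under the list median. MYO5C, a myosin of vesicle transport in epithelia, had 10 peaks of 9.79 to 22.8, of which 22.8 and 17.9 lay in the 3′-UTR. MYO6, the motor that moves towards the pointed end, had 5 peaks of 12.0 to 32.3, and MYO9A had 5 of 9.3 to 14.2. MYO5A had 3 (10.3 to 18.6) and MYO1E 1 (11.3). The median of the group was under the lower quartile of the list, 17.6. The 14 MYH genes, the two-headed myosins of muscle and of non-muscle contraction, had none, and MYH9 and MYH10 of non-muscle cells were among them. Over MYO and MYH together, 6 of 39 genes were listed (15.4%, 7.25 to 29.7), near the share over all protein-coding genes.

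Without the myosins, a cut made after seeing the data, 13 of 58 genes were listed (22.4%, 13.6 to 34.7). The share over all protein-coding genes was 15.3%, within that interval. The 75 peaks of these 13 genes had a median of 348 (279 to 460), and 68 of the peaks reached the list median. Leaving out the group with the lowest scores raises the median by construction. Among the 100 genes with the highest best score, 6 were of the set: ACTB, CNN3, CAPZA1, ARPC4, TMOD3 and TPM3. That is 31.6% of its 19 listed genes, beside 3.02% of all listed genes. There were 11 genes of the set in the top 500, and the top 1000 held the same number.

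Position within the transcript was compared next. By annotation 72 of the 101 peaks (71.3%, 61.8 to 79.2) were intronic, 19 (18.8%, 12.4 to 27.5) were in a 3′-UTR and 7 (6.93%, 3.4 to 13.6) in an exon, with 2 in a non-coding exon and 1 at a promoter. Over the list the shares were 61.9% for introns, 14.6% for 3′-UTRs and 12.6% for exons. Each of these intervals contained the share over the list, that for introns only just. The intervals treat peaks as independent, which peaks of 1 gene are not, and TMOD3 alone had 14 of the intron peaks. The median score was 605 over 19 peaks in 3′-UTRs and 77.4 over 72 in introns, beside 65.4 and 28.6 over the list. Without ACTB the 3′-UTR median was 467. The myosins, with their low scores, supplied 24 of the intron peaks and 2 of those in 3′-UTRs. Without them the medians were 608 over 17 peaks in 3′-UTRs and 295 over 48 in introns.

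The intron class depended on where along a peak the position was read. In 71 of the 72 intron peaks an exon of the same gene lay within 347 bp of the centre, with a median distance of 99.5 bp over all 72. In each of those 71 the exon lay behind the peak along the strand of the peak, to the left of 36 of 36 plus peaks and to the right of 35 of 35 minus peaks. The exception was the 459.8 peak of ARPC4-TTLL3, which lay 2075 bp from an exon of the readthrough transcript and had its trailing edge in exon 5 of ARPC4. Read at the trailing edge, 53 peaks (52.5%, 42.8 to 61.9) were in a coding exon and 18.8% in an intron, beside 53.2% and 20.2% over the list. For the myosins, 24 of 26 peaks were intronic by annotation and 21 of 26 were in a coding exon at the trailing edge.

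**Figure D3:**
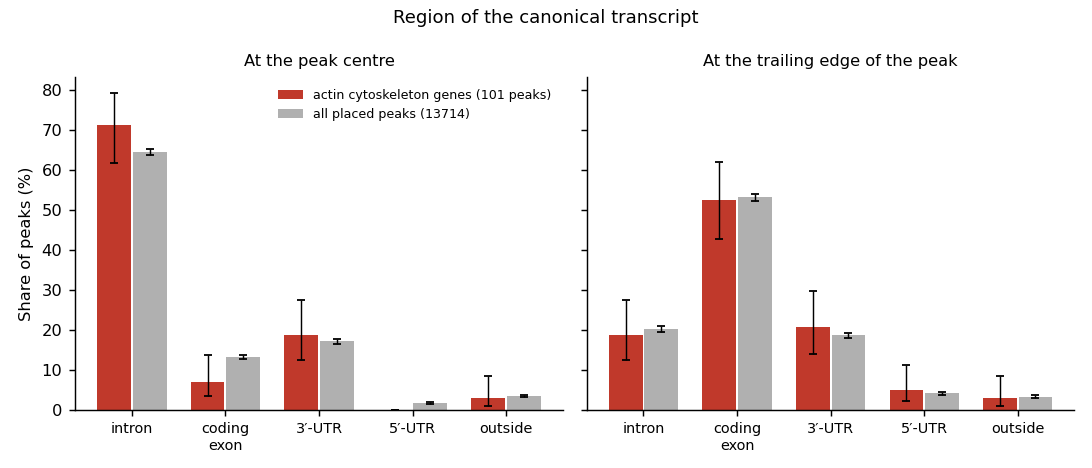
Share of peaks (percent, with Wilson 95% intervals) in each region of the canonical transcript, for the 101 peaks of the set and for all listed peaks with a placed gene, read at the peak centre and at the trailing edge. Introns hold 71.3% of the set at the centre and 18.8% at the trailing edge, and coding exons hold 52.5% at the trailing edge.

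Internal exons of the 19 genes, counted with or without a peak, were short. Their median length was 117 bp, and 322 of 326 were shorter than a peak, whereas the last exons had a median of 1733 bp. In 11 genes with peaks both at the last exon and elsewhere, the highest peak was at the last exon in 9, beside 76.9% of 1178 such genes in the list. The exceptions were ACTB and ACTR2. In ACTR2 the counting intervals of the best last-exon score (446.0 to 488.0) and the best other score (475.0 to 518.0) overlapped. Those of TMOD3 and MYO5C, which were among the 9, overlapped as well. The median log2 ratio of the best last-exon score to the best other score was 0.49 over the 11 genes and 0.52 over the 1178.

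The strand printed for a peak did not follow the strand of its gene closely. In the set 57 of 101 peaks (56.4%, 46.7 to 65.7) had the strand of the gene, beside 53.2% over the list, and in 3′-UTRs 10 of 19 did. Many peaks came in pairs, a minus peak with a plus peak centred 0 to 500 bp to its right. In the set 53 of 101 peaks (52.5%) were paired, beside 44.1% over the list, and the 27 pairs had a median offset of 295 bp (23 to 467). Pairs often had similar scores, as in ACTB exon 4, where the ratio of the minus to the plus score was 0.11 on the log2 scale, and in the TPM3 exon, where it was -0.03. In 15 of the 27 pairs the counting intervals of the scores overlapped.

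The list also gives a focus ratio, a fraction from 0 to 1 by which HOMER describes how the tags of a peak are placed around its centre. In paired peaks it was close to the share of the pair's summed score that the peak held. The median absolute difference was 0.00592 over 53 peaks, and 41 of them (77.4%) differed by no more than 0.05, beside 75.3% over the list. For TMOD3 outside its 3′-UTR, the focus ratios of both peaks summed to between 0.999 and 1.001 in all 7 pairs. The 6 pairs with both peaks in a 3′-UTR summed to between 1.035 and 1.236. In TMOD3 the most uneven pair was that of exon 1, with 24.0 and 186.0 and focus ratios of 0.116 and 0.883.

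**Figure D4:**
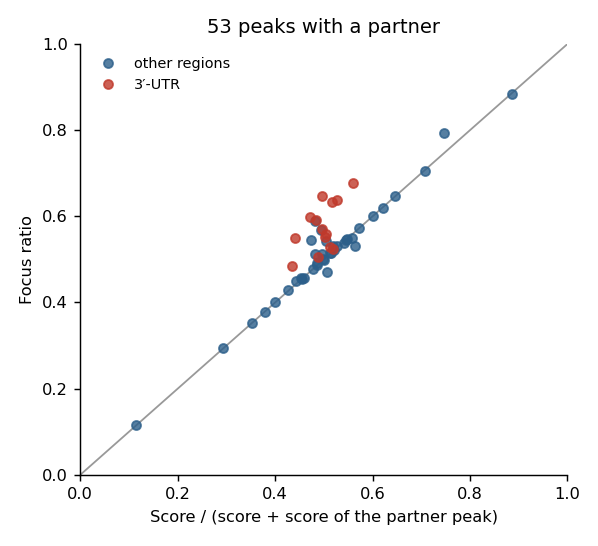
Focus ratio of each paired peak of the set against the share of the pair's summed score that the peak holds (both fractions from 0 to 1), with the line of equality; each point is 1 of 53 peaks. Of these, 41 lie within 0.05 of the line, and the peaks annotated to 3′-UTRs (red) lie above it.

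Peaks at first exons stood out in the focus ratio. All 5 peaks of the set that lay at a first exon on the strand of their gene had a ratio over 0.75 (0.794 to 0.997), in CNN3, CAPZA2, CNN2, TMOD3 and MYO5C. At internal exons 1 of 41 did, and at last exons 0 of 10. Over the list the shares were 61.1% of 573, 2.17% of 4802 and 0.139% of 1438.

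AU-rich and U-rich sequence was then compared between listed and unlisted genes of the set, in the 3′-UTR of the canonical transcript and on the sense strand. The pentamer ATTTA is the core of the AU-rich element. Its median density was 2.83 per kb in the 19 listed genes and 0.224 per kb in the 78 unlisted ones, beside 2.68 and 1.19 for all listed and unlisted protein-coding genes. With the longest annotated 3′-UTR of each gene, the unlisted median of the set was 0.952 per kb and the listed one stayed at 2.83. ATTTA was present in 15 of 19 listed (78.9%) and 39 of 78 unlisted genes, beside 93.4% of all listed and 62.7% of all unlisted genes. Pentamers of T, counted with overlaps, had medians of 10.3 and 3.49 per kb, beside 10.4 and 3.39. In median density the listed genes of the set were thus near the listed genes at large, while a smaller share of them held any ATTTA. Their 3′-UTRs were also longer, with medians of 1580 bp and 615 bp, and lower in GC, at 39.4% and 43.5%. The part of length and GC in the densities was not tested.

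**Figure D5:**
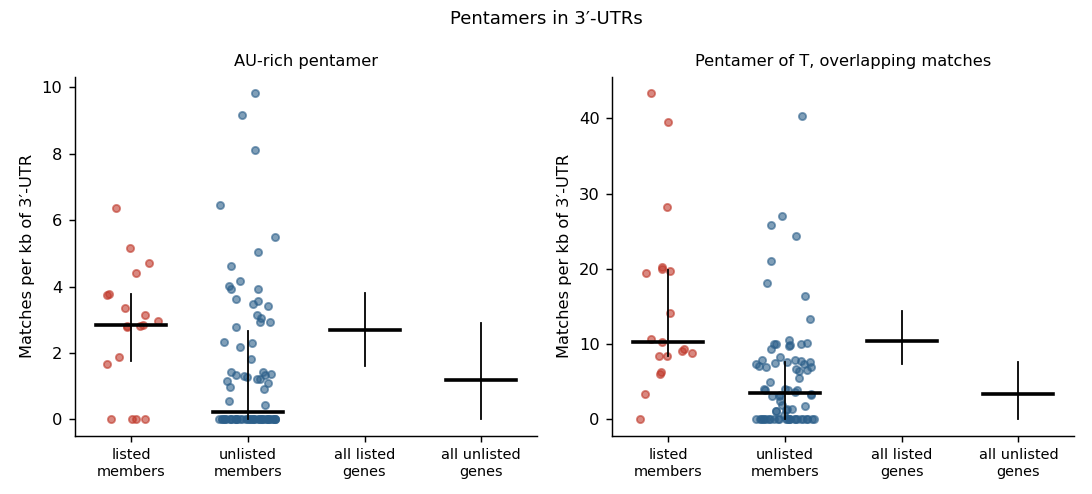
Density per kb of 3′-UTR of the AU-rich pentamer (ATTTA) and of pentamers of T (overlapping matches) in listed and unlisted genes of the set, 1 point per gene, with thick lines for medians and thin lines for quartiles, also of all protein-coding genes. Listed genes of the set have medians of 2.83 and 10.3 per kb, and unlisted ones 0.224 and 3.49.

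Among the genes with high scores, those with 3′-UTR peaks of their own differed in ATTTA, whereas all of them had T pentamers. The 600 bp 3′-UTR of ACTB held a single ATTTA (1.67 per kb) but 43.3 T pentamers per kb. CNN3 was rich in both, with 5 ATTTA in 785 bp (6.37 per kb) and 39.5 T pentamers per kb. TMOD3 had 26 ATTTA (3.76 per kb) and a T run of 13 bases, and ACTR2 had 13 ATTTA (5.16 per kb). ARPC4 and CNN2 had no ATTTA and a 3′-UTR GC content of 56.8% and 56.0%, but their T pentamers, at 28.2 and 19.7 per kb, were denser than the median of the listed genes. The corresponding densities were 19.5 per kb in CAPZA1, 14.2 in TMOD3, 10.7 in PFN2 and 10.3 in ACTR2. ACTG1, which was unlisted, had 2 ATTTA (2.78 per kb).

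Within the peaks themselves, ATTTA was present in 11 of the 19 annotated to 3′-UTRs, or 57.9% (36.3 to 76.9), beside 52.7% of the 2053 3′-UTR peaks of the list. A run of 5 T was present in 17 of 19 (89.5%, 68.6 to 97.1) beside 78.5%. The longer element TATTTAT, which contains ATTTA, was in 2 of 19 (10.5%) beside 8.23%. A run of 10 or more T was in 3 of 19 (15.8%) beside 11.0%. The intervals for ATTTA, the T run and TATTTAT each contained the share of the list, and peaks of 1 gene can overlap and so share these matches.

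Regulators and partners of actin outside the rule were counted as a wider frame. Of 64 such genes 24 were listed (37.5%, 26.7 to 49.7), beside the 15.3% of all protein-coding genes, with 135 peaks and a median best score of 53.6, beside 34.0 over all listed genes. CDC42, a GTPase of filopodia, had 6 peaks with a best score of 1614.4 in the 3′-UTR. CORO1C, a coronin of cell edges, had 20 peaks with a best score of 1204.2, also in the 3′-UTR. They were followed by the kinase PAK2 (319.1), the cortical protein CTTN (231.7), the membrane linker RDX (227.3), the filament elongation factor VASP (187.0), the GTPases RND3 (147.8) and RHOB (103.3), the kinase ROCK2 (95.2) and the fimbrin PLS1 (81.2). RHOA, RAC1, FLNA, MSN, VCL, TLN1 and MYL6 were unlisted. This list was chosen with results of these data known and is given by its counts only.

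The gene that the list names beside a peak, taken from the nearest transcription start site, often differed from the gene whose transcript it lay in. It differed for 57 of the 101 peaks (56.4%), beside 39.9% of 13514 peaks of the list. All 4 CAPZA1 peaks were named MOV10, 13 of the 19 TMOD3 peaks were named LOC100422556, and the 5 DIAPH3 peaks were named DIAPH3-AS1. By that column 18 symbols matched the rule, with 68 peaks, and 13 symbols were shared with the 19 genes described here. The missing ones were ARPC4-TTLL3, DIAPH2, DIAPH3, MYO1E, MYO5A and MYO9A.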

How the data were processed

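RIP-seq libraries from MDA-MB-231 cells (2 with anti-HuR, 2 with IgG) had been mapped by the authors to hg38 with STAR, and peaks had been called with HOMER. The methods name ANNOVAR for annotation, whereas the file header holds a HOMER annotation command. The methods state that peaks with a significant change in abundance were compiled last. Whether the list used here comes from before or after that step is not stated. The threshold of that step, program versions, peak settings, read strand and any pooling of replicates are not given in the sources used here. The deposited peak score has no stated scale, the focus ratio is a fraction per the file headers, and the distance to the start site is in bp per the file headers. In 98.8% of 11121 scores under 100, the value was a whole multiple of 0.245 within a tolerance of 0.051, against 41.7% by chance. Poisson intervals took 1 step as 1 count, which the authors do not state. They and the Wilson 95% intervals cover counting error only.

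A test of HuR against IgG with edgeR had been planned for counts of single samples and was not run, since the list holds none. Shares and medians are therefore given beside those of the whole list, with no test, and genes are not replicates. How tags were shifted before peaks were placed affects every coordinate, so positions were read at the peak centre and at the edge opposite to the direction of the peak's strand. Host genes were matched for 13838 of the 13929 peaks with a RefSeq transcript. Exons, 3′-UTRs and sequences came from hg38 with GENCODE 44, and 14137 peaks lay within the chromosome lengths. Coordinates are 1-based.

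The genes and lists were chosen with earlier results of these data known. All peaks were given for ACTB, CNN3 and the 8 other genes with the highest best peak, and best peaks for the other listed genes, except that 1 listed gene and 1 sequence are not reported here. Unlisted genes of non-muscle actin dynamics were named, and up to 10 related genes. Sequence stretches of 30 bases were the richest in ATTTA and runs of 5 or more T under each gene's 3′-UTR peaks. Scripts were tested on simulated data. Python 3.11.15, numpy 2.4.6, pandas 2.3.3, scipy 1.17.1 and matplotlib 3.10.9 were used.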

Additional observations from a re-analysis of the deposited data

How the results depend on the processing

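No paired analysis was possible because every peak has just 1 score, which belongs to the series as a whole. For the same reason no replicate was left out and HuR was not compared with IgG. Of 28 alternatives for 8 results, 22 stayed within a tolerance set for each result. Examples were 1.5-fold for counts, the 95% interval for medians and shares and the quartile range of the unlisted genes for densities. For ATTTA density that range, 0.0 to 2.67 per kb, was wider than the difference checked. A fall to no difference would have stayed within it, so the tally cannot show that this result is stable. The number of listed genes was 19, and 10 when an exon of the canonical transcript had to overlap a peak over at least 50% of the peak. The median score of 231 became 348 without the myosins, an alternative chosen after seeing the data. The intron share of 71.3% became 18.8% when positions were read at the trailing edge. The difference in ATTTA density between listed and unlisted genes, 2.606 per kb, was 6.81 per kb for pentamers of T and 0.239 per kb for TATTTAT, the latter with an unlisted median of 0.0. The share of 3′-UTR peaks with the element, 57.9%, was 10.5% for TATTTAT and 89.5% for pentamers of T. These are other elements and so other counts, and the longest annotated 3′-UTR gave a difference of 1.878 per kb. The remaining ranges were 13 to 19 listed genes, 68 to 82 peaks, 14.6% to 24.6% of peaks in 3′-UTRs and 70.9% to 72.4% of the summed score on ACTB. Unknown depth limits what an unlisted gene means, since absence from a list of called peaks is no measure of binding or expression.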

Other observations

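Some peaks carried the symbol of an actin cytoskeleton gene while lying in the transcript of a neighbour. The 4 peaks named MYH15 lay in introns of CIP2A and scored 93.2, 45.5, 70.5 and 76.8, and the 3 named MYO3B lay in UBR3 and scored 18.8, 18.1 and 18.6. The pair named ACTC1, a cardiac actin, lay in introns of AQR and scored 14.2 and 18.8. None of these counted as a peak of the named gene here.

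At the 5′ end of CNN3, the 1539.0 peak of intron 1 was paired with a peak of 520.0 that was annotated to the promoter of the divergent transcript CNN3-DT. The minus peak held 0.747 of the summed score and had a focus ratio of 0.794, and the plus peak had a ratio of 0.244. A peak of 104.0 near PFN2 was likewise annotated to the promoter of a neighbouring non-coding transcript, and a peak of 15.2 near CAPZA1 to that of ST7L.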
